A study of Mus musculus with 71 samples.

Results

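The change in gene expression over the chase was followed in male mouse embryonic stem cells (mESC) that were kept in STM2457, an inhibitor of the m6A methyltransferase Mettl3. The comparison set the 4 libraries collected at the end of the chase (STM2457 T7) against the 4 libraries collected at its start (STM2457 T0), which are 8 of the 71 libraries of the series. Both groups were labelled with 100 µM 4-thiouridine (s4U) for 24 h and received 20 µM STM2457 for the last 6 h of labelling. T0 cells were collected then, after 6 h of inhibitor. T7 cells were washed, given fresh medium with a 100-fold excess of uridine and the inhibitor, and collected 12 h later, after 18 h of inhibitor. The 23 STM2457 libraries from the 6 time points in between (T1 to T6, at 1, 1.5, 2.3, 3.5, 5.3 and 8 h of chase) gave the course, and the 8 DMSO libraries of T0 and T7, which had the same labelling and chase with the solvent alone, gave the background of the chase itself. All cells were grown in medium with leukemia inhibitory factor (LIF), the MEK inhibitor PD 0325901 and the GSK3 inhibitor CHIR99021, on 24-well plates seeded to be confluent at collection. During labelling the medium was exchanged every 3 h, and no exchange is stated for the 12 h of chase. T7 therefore differs from T0 in time in inhibitor, loss of s4U, excess of uridine, renewal of the medium and time in culture. Within STM2457 these cannot be told apart. Replicates are named by number in the labels, and the study calls them biological and independent of each other.

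N6-methyladenosine (m6A) is the most abundant internal modification of mRNA. It is written in the nucleus by a complex around Mettl3 and Mettl14 and is read in the cytoplasm by proteins of the Ythdf family, which promote decay of the modified mRNA. mESC in this medium are held in the naive state of pluripotency, in which FGF-ERK signalling is blocked and the factors of the formative and primed states are low. The integrated stress response and the unfolded protein response are linked programmes that raise amino acid supply and endoplasmic reticulum chaperones through the transcription factors Atf4, Xbp1 and Atf6.

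Each library held 5606256 to 6591606 reads at T0 and 5625088 to 6421477 at T7, counted on the 3′ ends of genes. The share of reads that mapped to several positions was 27.2% ± 0.61 (SD, n = 4) at T0 and 24.1% ± 1.12 at T7, and the groups did not overlap (exact permutation test, p = 0.029, the smallest that 4 against 4 allows). T7 replicate 1 had the lowest share, at 22.5%. The rate of T-to-C conversions, which marks the s4U-labelled RNA, was 1.28% ± 0.07 at T0 and 0.223% ± 0.006 at T7 (exact p = 0.029, again the smallest possible). Along the course, the 4 libraries of T1 stood apart. Against T0, 306 genes were higher (2.52% of 12121) and 558 lower (4.6%) at T1, and between T1 and T2, at 1 and 1.5 h, 1254 were higher and 1145 lower, whereas no other pair of neighbouring time points after T1 differed in more than 12 genes. Of the mESC markers, Pou5f1, Nanog, Esrrb, Zfp42 and Tfcp2l1 were read in all 8 libraries, and Klf4 was low, at 2.41 CPM (read counts scaled by library size and TMM factors) at T0 and 2.77 CPM at T7. The fibroblast markers Col3a1, Lum and Postn had 0 reads over the 8 libraries. The primitive endoderm markers Sox17 and Gata6 had 10 and 17 reads, and the trophoblast markers Elf5 and Tpbpa had 0. Other members of each list were read more. On the fibroblast list Thy1 had 513 reads and Twist1 465. On the primitive endoderm list Col4a1 had 921 and Gata4 281, and on the trophoblast list Tfap2c had 5321 and Cdx2 1033. No tested member of these 3 lists was called, but 5 of 11 fibroblast, 5 of 13 primitive endoderm and 6 of 10 trophoblast markers were tested. Over all genes 3.98% were called higher and 4.79% lower, so nothing is read from 0 calls among so few. The summed level was 25.6 to 41.3 CPM at T0 and 31.3 to 35.8 CPM at T7 for the fibroblast list and 272 to 306 against 234 to 263 CPM for the primitive endoderm list, which Sparc and Lamb1 led. For the trophoblast list it was 127 to 170 against 132 to 167 CPM.

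Over the chase, some genes of amino acid supply and of endoplasmic reticulum folding rose, as did tubulins and some mitochondrial ribosomal proteins. Some genes of FGF-ERK signalling, of the formative state and of mitosis fell, as did some replication-dependent histones and 47 of 78 cytosolic ribosomal proteins. Of 10904 genes tested, 434 were higher at T7 (3.98%) and 522 were lower (4.79%) at an adjusted p under 0.01 (edgeR's quasi-likelihood test, Benjamini-Hochberg adjustment). The median gene moved by 0.011 on the log2 scale, and the median called gene by 0.63 in either direction. At least 1.5-fold changes were found for 279 of the higher and 271 of the lower genes. The gene last inside the threshold was Bad (log2 change 0.46, adjusted p = 0.009997), and the first outside was Trrap (0.54, adjusted p = 0.01004). The direction split depends on the scaling. With library totals in place of TMM factors the median gene moved by 0.11, and 714 genes were higher and 300 lower. The counts also depend on single libraries. They were 260 higher and 334 lower without T7 replicate 3, 265 and 320 without T7 replicate 2, and 276 and 340 without T0 replicate 1.

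**Figure D1:**
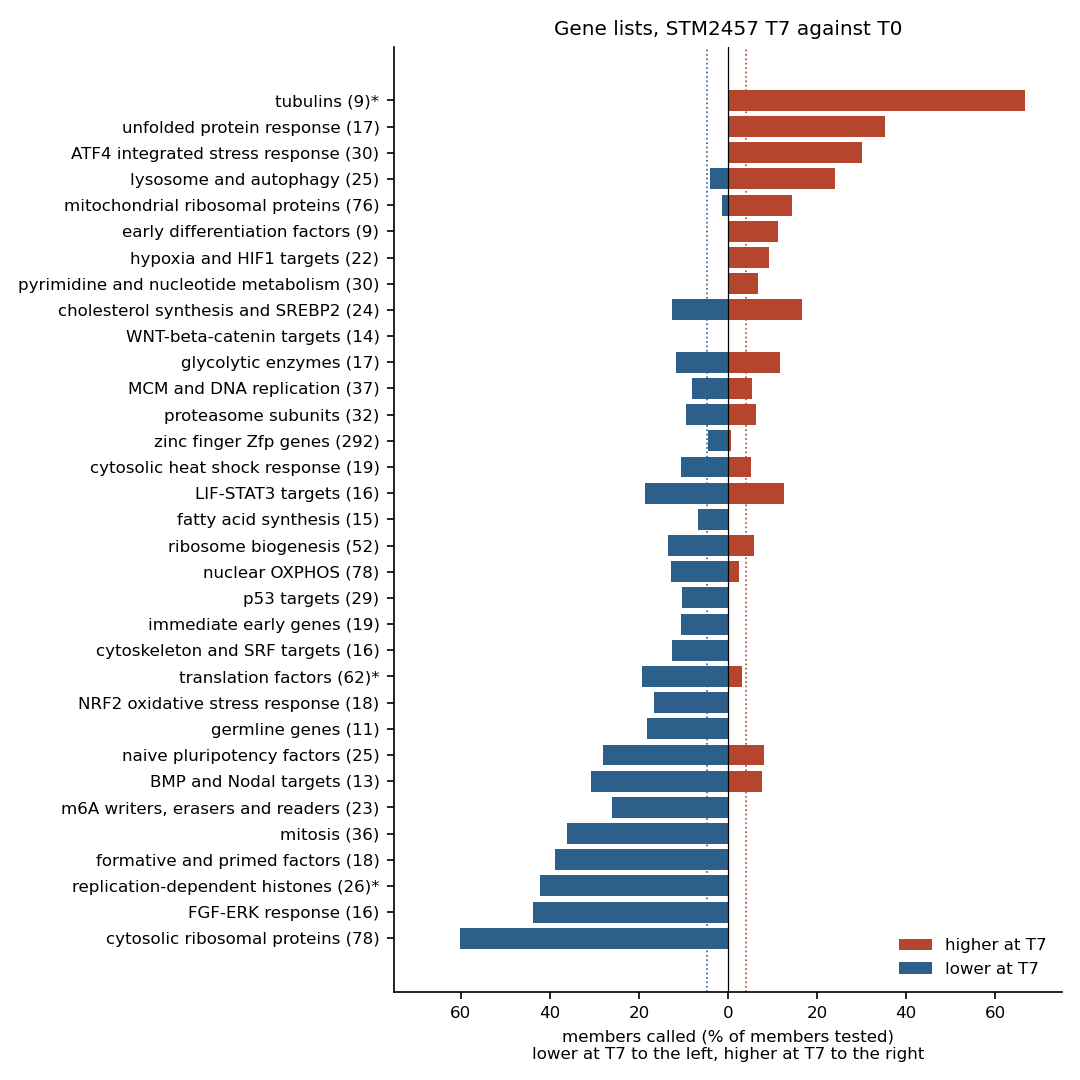
Share of the tested members of each gene list that was higher (right) or lower (left) at STM2457 T7 than at T0, at an adjusted p under 0.01, with the number tested in brackets. Dotted lines mark 3.98% higher and 4.79% lower over all genes, and stars mark 3 lists that were added after values had been seen; the cytosolic ribosomal proteins reach furthest to the left, with 47 of 78, and the tubulins furthest to the right, with 6 of 9.

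Genes of the integrated stress response were called in 1 direction. Of 30 tested genes on this list, which holds Atf4 and genes that it is known to activate, 9 were higher and 0 lower, with a median change of 0.26 on the log2 scale against 0.011 over all genes. Chac1, which degrades glutathione and is a target of Atf4 (chromosome 2, 119351229 to 119354381, GRCm38), was read at 4.01, 4.52, 8.61 and 5 CPM in T0 replicates 1 to 4 and at 22.1, 34.3, 19.22 and 13.1 CPM in T7 replicates 1 to 4. Chac1 was among the 12 largest increases, whose rule asked for no overlap between the groups, so that separation is no further result. Its T7 libraries spread more widely than its T0 libraries. The change was 4.01-fold (log2 2.00 ± 0.30 SE, adjusted p = 2.4e-05). Slc7a1, a carrier of arginine and lysine (chromosome 5, 148327410 to 148399904), was at 19.7, 18.6, 9.66 and 16.9 CPM at T0 and at 42.8, 43.5, 34.6 and 39.9 CPM at T7 (log2 1.31 ± 0.19, adjusted p = 2.4e-05). It was selected by the same rule. Trib3, a pseudokinase that restrains Atf4, was at 27.2, 21.5, 19.5 and 18.3 CPM at T0 and at 54.7, 47.3, 41.97 and 39.7 CPM at T7 (log2 1.09 ± 0.17, adjusted p = 4.5e-05). All T7 libraries lay above all T0 libraries. Pck2, the mitochondrial phosphoenolpyruvate carboxykinase, rose by 1.07 (adjusted p = 0.00054) and Mthfd2, an enzyme of mitochondrial one-carbon metabolism, by 0.63 (adjusted p = 0.00016). Smaller changes were found for Atf4 itself (0.44, adjusted p = 0.00073), the mTOR inhibitor Ddit4 (0.48), the amino acid carrier subunit Slc3a2 (0.41) and the asparaginyl-tRNA synthetase Nars (0.36). Ddit3, the transcription factor CHOP, was at 22.8 ± 3.85 CPM at T0 and 27.05 ± 7.21 at T7 and was not called (adjusted p = 0.44).

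The unfolded protein response had 6 of 17 genes higher, 0 lower and a median change of 0.24. Hspa5, the main chaperone of the endoplasmic reticulum (chromosome 2, 34771970 to 34777547), was at 739.7, 735, 706 and 779 CPM at T0 and at 900.4, 946, 1044 and 1045 CPM at T7. Its lowest T7 library lay above its highest T0 library (log2 0.41 ± 0.083, adjusted p = 0.00095). Xbp1, a transcription factor of this response, rose by 0.86 ± 0.16 from 33.5 ± 1.46 CPM to 60.9 ± 15.3 CPM (adjusted p = 0.00031). The co-chaperone Dnajc3 rose by 0.76, the degradation factor Herpud1 by 0.75, the secreted factor Manf by 0.48 and the chaperone Hsp90b1 by 0.40. Of 19 tested genes of the heat shock response, 1 was higher and 2 were lower. Hspa1b, an inducible Hsp70, was at 34.9, 30.6, 37.2 and 25.96 CPM at T0 and 11.5, 15.2, 15.2 and 15.6 CPM at T7 (log2 -1.16 ± 0.19, adjusted p = 8.7e-05). The matrix chaperonin Hspd1 rose by 0.39, with 83.1% of its reads mapping to several positions, and its partner Hspe1 fell by 0.35.

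The promoters of these genes were searched for a known binding motif of each programme, within the 250 bases before and 50 after each RefSeq start site on GRCm38.p6 and on both strands. The C/EBP-ATF response element (CARE) was written TGATGNAA, and the endoplasmic reticulum stress element (ERSE) was written as CCAAT and CCACG with any 9 bases between them. CARE was found for 8 of the 23 genes of the Atf4 list with a promoter window, which is 34.8%. It was found for 4.51% of all 27025 genes with a window and for 2.49% of the tested genes. The Atf4 list holds genes that Atf4 is known to activate, so a high share was built into it. ERSE was found for 6 of 15 genes of the unfolded protein response, or 40%. The share was 0.137% over all genes and 0.174% over the tested genes. Of the 8 Atf4-list genes with a window that rose, 3 held CARE, so the other 5 with CARE were not called higher. The share was thus 37.5% in the genes that rose, close to the 34.8% of the whole list. Of the 5 such genes of the unfolded protein response, 3 held ERSE. No gene shown held both in its window. The windows shown are those of genes that rose, 28 bases each and 5′ to 3′ on the strand that carries the motif, with the motif in capitals. A match is a description of these letters and not a measured site.
Chac1, CARE, chr2:119351039-119351066, minus strand: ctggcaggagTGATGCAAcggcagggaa
Trib3, CARE, chr2:152344029-152344056, plus strand: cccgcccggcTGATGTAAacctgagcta
Pck2, CARE, chr14:55540153-55540180, minus strand: tgtaagatacTGATGTAActttgaaggc
Herpud1, CARE, chr8:94386307-94386334, minus strand: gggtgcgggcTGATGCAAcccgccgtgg
Hspa5, ERSE, chr2:34772021-34772048, plus strand: ttcaCCAATCGGAGGCCTCCACGacggg
Dnajc3, ERSE, chr14:118937823-118937850, plus strand: acaaCCAATCAGCGCCAACCACGacccg
Hsp90b1, ERSE, chr10:86705529-86705556, plus strand: ctcaCCAATCGTGCCTCACCACGcactc

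FGF-ERK response genes were called lower or not at all. Of 16 tested, 0 were higher and 7 lower, with a median change of -0.47. Etv4, an ETS transcription factor that is induced by ERK (chromosome 11, 101769742 to 101785371), was read at 39.4, 36.6, 48.8 and 47.2 CPM in the T0 libraries and at 10.2, 8.83, 8.76 and 9.63 CPM in the T7 libraries. The 4 T7 values lay close together. Etv4 was among the 12 largest decreases, whose rule asked for no overlap between the groups. It fell by 2.20 ± 0.18 on the log2 scale (adjusted p = 5.4e-09). The ERK phosphatase Dusp6 was at 50.9, 37.8, 54.3 and 42.2 CPM at T0 and 20.98, 20.9, 26.4 and 22.5 CPM at T7 (log2 -1.03 ± 0.16, adjusted p = 6.0e-05). Spry4, a feedback inhibitor of the pathway, and Dusp4, a nuclear phosphatase, were rarer. Spry4 was at 8.69 ± 1.03 CPM at T0 and 2.26 ± 1.42 at T7 (log2 -1.94 ± 0.45, adjusted p = 0.0029), and Dusp4 was at 7.86 ± 1.87 and 2.34 ± 1.36 (log2 -1.74 ± 0.45, adjusted p = 0.0072). Epha2, Spred1 and Etv5 fell by 0.73, 0.46 and 0.42. The count depends on single libraries, since it was 3 without T7 replicate 3, 3 without T7 replicate 4, 4 without T7 replicate 2 and 4 without T0 replicate 4. It was 4 with library totals in place of TMM factors and 4 over all 31 labelled libraries. Of 19 immediate early genes, Klf6 fell by 0.75 and Zfp36l1, which promotes decay of AU-rich mRNA, by 1.13, and 0 were higher.

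The factors of the formative and primed states gave a like count. Of 18 tested, 0 were higher and 7 lower, with a median of -0.46, and 2 of the 7 (Etv4 and Etv5) are also on the FGF-ERK list. Otx2 and Pou3f1, which drive the exit from the naive state, were already rare at T0. Pou3f1 was at 8.51, 10.5, 5.62 and 9.85 CPM at T0 and 1.80, 2.13, 0.769 and 2.41 CPM at T7 (log2 -2.27 ± 0.44, adjusted p = 0.0006). Otx2 was at 7.35, 5.79, 8.08 and 7.04 CPM at T0 and 0.983, 0.981, 2.31 and 1.72 CPM at T7 (log2 -2.22 ± 0.48, adjusted p = 0.0015). Both genes were near the floor at T7, so no weight is put on the gap between the groups. Tcf15, a bHLH factor of this transition, fell by 1.18 (adjusted p = 2.8e-06). The de novo DNA methyltransferases Dnmt3a and Dnmt3b fell by 0.89 and 0.73, and their cofactor Dnmt3l, which is on no list, by 1.08. Dnmt3l was at 185, 179, 209.7 and 199 CPM at T0 and 103, 93.4, 85.6 and 82.8 CPM at T7. Tex19.1, a germline gene that is silenced by DNA methylation, fell by 1.13 (adjusted p = 1.2e-07) and Tdrd12 by 0.56, out of 11 tested germline genes.

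The naive factors moved in both directions, with 2 of 25 higher and 7 lower and a median of -0.18. Over all 31 labelled libraries 4 were lower, and the median was -0.09 without T7 replicate 4 and -0.08 with library totals. Tfcp2l1, a naive factor downstream of LIF (chromosome 1, 118627945 to 118685168), was at 29.7, 27.5, 28.98 and 24.1 CPM at T0 and at 64.1, 73.1, 68.7 and 72.02 CPM at T7. The change was 1.33 ± 0.14 on the log2 scale (adjusted p = 1.2e-07). Tfcp2l1 was among the 12 largest increases, whose rule asked for no overlap between the groups. Klf5 rose by 0.46 ± 0.10. Gbx2, another target of LIF, was at 33.6, 34.7, 53.7 and 36.6 CPM at T0 and 17.7, 14.4, 15.2 and 15.8 CPM at T7 (log2 -1.33 ± 0.18, adjusted p = 1.1e-05). Dppa2, Utf1, Sall4 and Lin28a fell by 0.70, 0.59, 0.48 and 0.47. Pou5f1 and Zfp42 fell by 0.31 and 0.51, but 95.7% and 71.8% of their reads mapped to several positions, so their counts are uncertain. Nanog was at 265 ± 25.6 CPM and 232 ± 12.02 CPM (adjusted p = 0.17) and Esrrb at 118 ± 10.04 CPM and 138 ± 13.6 CPM (adjusted p = 0.14). Among 16 LIF-STAT3 targets, 2 were higher and 3 lower, including Pim1 (log2 -0.64) and Sgk1 (-0.64). Among 13 BMP and Nodal targets, 1 was higher and 4 were lower. Nodal itself was at 152, 210.3, 149.8 and 151 CPM at T0 and 94.9, 85.9, 97.8 and 87.1 CPM at T7 (log2 -0.86 ± 0.11, adjusted p = 7.2e-06), its co-receptor Tdgf1 fell by 0.89, and the BMP targets Id1 and Id3 by 0.82 and 0.59. Lefty2, a secreted Nodal inhibitor, rose by 0.51. None of 14 WNT-beta-catenin targets was called, and nothing is read from that among so few.

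**Figure D2:**
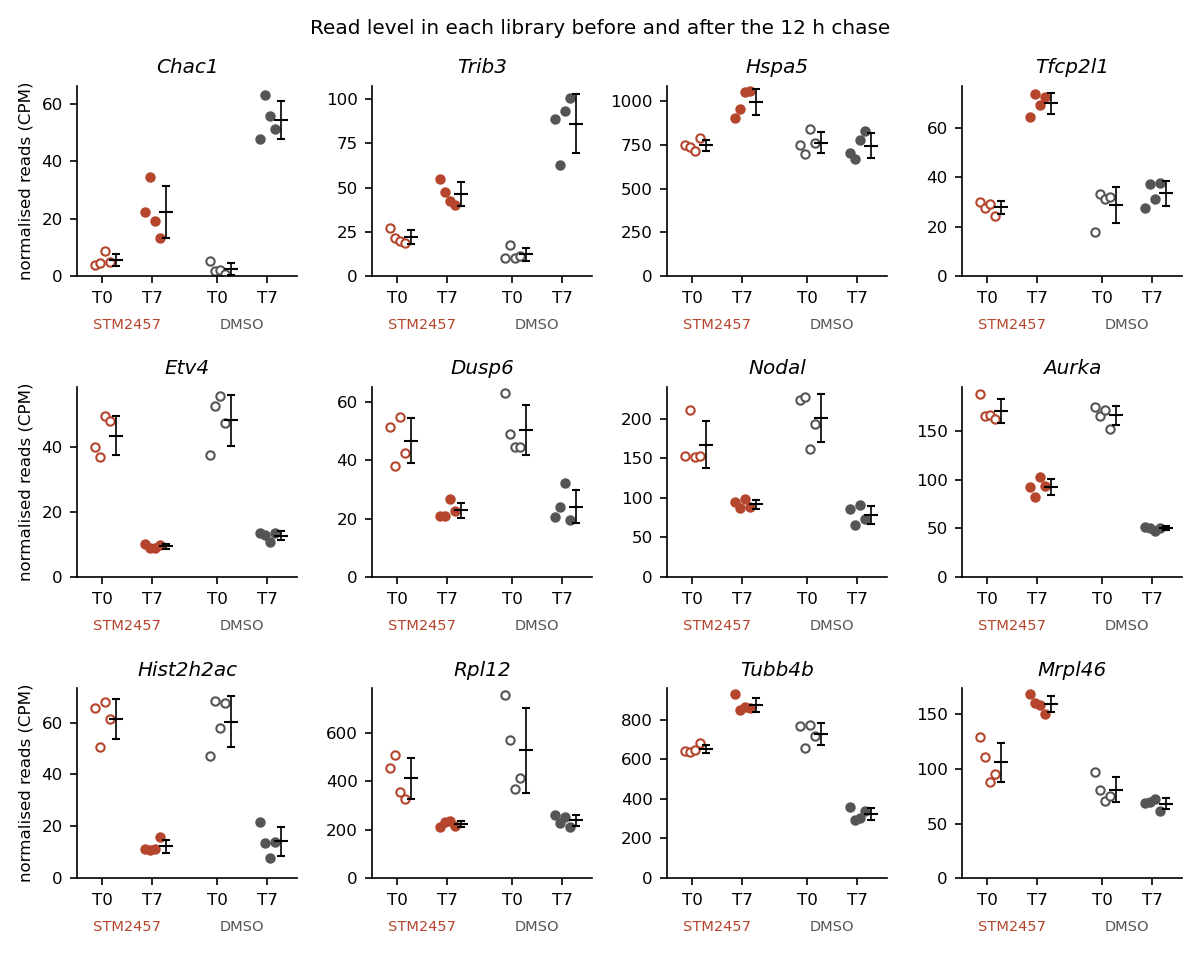
Normalised reads (CPM, TMM over 16 libraries) of 12 genes in each STM2457 library (red) and each DMSO library (grey) at T0 (open) and T7 (filled), with the mean and SD (n = 4) beside the points. Etv4, Dusp6 and Nodal were lower at T7 in both treatments, Tfcp2l1 and Tubb4b were higher at T7 in STM2457, and Chac1 and Trib3 reached higher levels in DMSO.

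Of 36 mitotic genes, 13 were lower and 0 higher, with a median of -0.38. The count was 8 without T7 replicate 2. Aurka, a kinase of the spindle poles, was at 187, 165, 164 and 160.4 CPM at T0 and 92.1, 81.8, 102 and 92.8 CPM at T7 (log2 -0.88 ± 0.10, adjusted p = 1.4e-06). The kinase Plk1 was at 327, 282, 416 and 404 CPM at T0 and 219, 191, 219.9 and 217 CPM at T7 (log2 -0.75 ± 0.11, adjusted p = 1.6e-05). Prc1, Hmmr and Nusap1, which organise spindle microtubules, fell by 0.87, 0.88 and 0.74, and Ube2c and Cdc20, of the anaphase-promoting machinery, by 0.65 and 0.54. Cyclin B1 (Ccnb1) fell by 0.37. Mki67 was at 89.7 ± 4.08 CPM at T0 and 87.2 ± 6.35 at T7 (adjusted p = 0.84), and Birc5 at 445 ± 31.2 and 525 ± 53.7 (adjusted p = 0.07). Kif20b, a kinesin of cytokinesis that is on no list, was among the 12 strongest decreases, from 18.7 ± 8.68 CPM to 4.07 ± 0.913 CPM (log2 -2.19 ± 0.32). Of 37 genes of DNA replication, 2 were higher and 3 lower, so few that nothing is read from the counts beside the 3.98% and 4.79% over all genes. Pcna fell by 0.46, with 48.5% of its reads mapping to several positions, and Rpa3, the small subunit of replication protein A, by 1.20.

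Replication-dependent histones gave 5 of the 12 strongest decreases by the naming rule, 4 on chromosome 13 and 1 on chromosome 3. The choice of this list came after a look at their values. Of 63 such genes in the files, 26 passed the filter on low counts, and of these 11 were lower and 0 higher, with a median of -1.25. Hist2h2ac (chromosome 3, 96220361 to 96220880) was at 65.3, 50.3, 67.1 and 60.7 CPM at T0 and 11.1, 10.8, 11.1 and 15.8 CPM at T7 (log2 -2.32 ± 0.17, adjusted p = 4.5e-10). Hist1h2ae was at 52.4, 42.7, 61.3 and 45.2 CPM at T0 and 18.4, 21.8, 15.1 and 21.3 CPM at T7 (log2 -1.40 ± 0.17). The linker histone Hist1h1a fell by 2.21 and Hist1h2an by 1.95. The libraries were primed on poly(A) tails, which most mRNA of these genes lacks, so the values stand for polyadenylated transcripts only.

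Cytosolic ribosomal proteins had the largest share of lower genes among the lists drawn in the plot of list shares. Of 78 tested, 47 were lower and 0 higher, with a median of -0.39. Rpl17 was at 893, 841, 612 and 658 CPM at T0 and 232, 380.4, 409 and 414 CPM at T7 (log2 -1.07 ± 0.13, adjusted p = 3.3e-06). Rpl12 was at 454, 506, 353 and 325 CPM at T0 and 210.3, 229, 234 and 215 CPM at T7 (log2 -0.88 ± 0.11, adjusted p = 3.3e-06). In both genes the T0 libraries differed among themselves by over 100 CPM and yet lay above all T7 libraries. These genes have many processed pseudogenes, and 94.7% and 91.9% of the reads of Rpl17 and Rpl12 mapped to several positions. Without multimapping reads, 24 of 77 were lower and 0 higher, with a median of -0.29. The share of multimapping reads fell over the chase as well, and its part in the result was not tested beyond that count. Translation factors, a list added after values had been seen, had 2 of 62 higher and 12 lower. Eef1a1, the elongation factor with 10052 ± 795 CPM at T0, fell by 0.44, and Eif4a2 and Eif3m by 0.78 and 0.68, each with over 70% of reads mapping to several positions. The 5 genes with the most reads were Eef1a1, Rplp1, Gm20388, Ccdc36 and Rpl41, and of these Eef1a1 alone was called. The Ccdc36 entry had 99.99% multimapping reads, so its level of 8152 ± 814 CPM at T0 may not belong to that gene.

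Ribosome biogenesis factors were mixed, with 3 of 52 higher and 7 lower. Nucleolin (Ncl) was at 1642, 1534, 1526 and 1874 CPM at T0 and 2086, 2469, 2522 and 2643 CPM at T7 (log2 0.56 ± 0.088, adjusted p = 4.9e-05), so its T7 libraries were all above its T0 libraries. Utp3 and Rrs1, of the small and large subunit pathways, fell by 0.75 and 0.73. Mitochondrial ribosomal proteins were mostly called in the other direction, with 11 of 76 higher and 1 lower, though their median was 0.08. Mrpl14 rose from 63.5 ± 2.28 CPM to 111 ± 3.88 CPM (log2 0.81 ± 0.11, adjusted p = 7.4e-06), Mrps12 by 0.60 and Mrpl46 by 0.59, and Mrpl39 fell by 0.54. The count of higher genes was 5 without T7 replicate 3, 6 without T7 replicate 2, 7 without T0 replicate 1, 7 over all 31 labelled libraries and 17 with library totals. Nuclear-encoded genes of oxidative phosphorylation had 2 of 78 higher and 10 lower (median -0.16). The lower count was 3 without T7 replicate 2, 4 without T7 replicate 3, 5 without T7 replicate 4, 4 without T0 replicate 1, 5 without T0 replicate 2, 5 over all 31 labelled libraries and 3 with library totals. The ATP synthase genes Atp5e, Atp5md and Atp5b fell by 0.50, 0.53 and 0.43, and Uqcrfs1, the Rieske protein of complex III, rose by 0.48.

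Tubulin genes, a list added after values had been seen, had 6 of 9 higher, 0 lower and a median of 0.46. Tubb2b was at 501, 440.3, 582 and 892 CPM at T0 and 969, 1160.2, 1204 and 1163 CPM at T7 (log2 0.90 ± 0.13, adjusted p = 3.0e-05), with 49.9% multimapping reads. Tubb5, which had 0.521% multimapping reads, was at 2959, 2295, 3132 and 3431 CPM at T0 and 3614, 4410.4, 4006 and 4328 CPM at T7 (log2 0.47 ± 0.10, adjusted p = 0.001). Nearly all reads of Tubb5 were thus unique. Tubb2a, Tuba4a, Tubb6 and Tubb4b rose by 0.67, 0.53, 0.46 and 0.43.

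In lipid and lysosomal genes, increases and decreases met within one pathway. Of 24 cholesterol synthesis genes, 4 were higher and 3 lower. Mvd, Nsdhl, Pmvk and Ebp, which are enzymes of the pathway, rose by 0.60, 0.62, 0.58 and 0.50. The feedback regulator Insig1 fell by 0.66. Idi1 was -0.72 with all reads, but 90.5% of them mapped to several positions, and its change was 0.07 without those. Of 25 lysosome and autophagy genes, 6 were higher and 1 lower, and 3 were higher over all 31 labelled libraries. The progranulin gene Grn was at 206, 178, 287 and 260.2 CPM at T0 and 402, 404, 386 and 359 CPM at T7 (log2 0.73 ± 0.11, adjusted p = 3.6e-05). Lamp2, Ctsl, Npc1, Npc2 and Ctsd rose by 0.67, 0.48, 0.48, 0.46 and 0.34, and Map1lc3b fell by 0.46. In the nucleotide list, which holds the genes that handle uridine, 2 of 30 were higher and 0 lower. Thymidine kinase (Tk1) was at 147, 81.98, 135 and 142 CPM at T0 and 198, 285, 266 and 335 CPM at T7 (log2 1.10 ± 0.14, adjusted p = 5.5e-06), and uridine phosphorylase (Upp1), which cleaves uridine, rose by 0.42 (adjusted p = 0.0064).

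The m6A machinery was also read. Of 23 writers, erasers and readers, 0 were higher and 6 lower, with a median of -0.14. Mettl3, the target of the inhibitor, was at 32.9, 35.8, 28.98 and 23.5 CPM at T0 and 11.31, 18.5, 17.7 and 24.6 CPM at T7. The groups overlapped, and the change of -0.75 ± 0.21 was not called (adjusted p = 0.012), although it was called over all 31 labelled libraries (adjusted p = 0.0092). The inhibitor acts on the enzyme, so this level is no check of its action. The nuclear reader Ythdc1 fell by 0.71 (43.5% multimapping reads) and the cytoplasmic reader Ythdf2 by 0.64. Of the writer complex, Rbm15, Cbll1 and Wtap fell by 0.62, 0.60 and 0.37, and the reader Igf2bp1 by 0.40. The count was 2 without T7 replicate 3, 3 without T7 replicate 2 and 2 with library totals in place of TMM factors.

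The 12 largest increases by the naming rule, which asked for a mean of at least 10 CPM and no overlap between the groups, included genes outside these lists. Ogt, the enzyme that adds O-GlcNAc to proteins (chromosome X, 101640060 to 101684351), was at 64.8, 54.1, 69.9 and 84.9 CPM at T0 and 187, 155, 175 and 165 CPM at T7. It more than doubled, with little spread (log2 1.32 ± 0.12, adjusted p = 2.4e-08). Ap3b2, a neuronal adaptor subunit, rose by 1.48, Mocos, the molybdenum cofactor sulfurase, by 1.46, the zinc finger genes Zfp251 and Zfp651 by 1.43 and 1.39, and Col9a2, a collagen chain, by 1.35. The remaining ones were 2510009E07Rik (1.34), Rnpepl1 (1.32) and Rai1 (1.31). Among the 12 largest decreases, Nup98, a nucleoporin (chromosome 7, 102119398 to 102210176), was at 57.3, 70.6, 29.9 and 38 CPM at T0 and 18.4, 14.4, 12.9 and 20.3 CPM at T7 (log2 -1.57 ± 0.22, adjusted p = 9.3e-06). Meioc, a meiotic gene, fell by 1.41, Syt11 by 1.46 and 1700023F06Rik by 1.50. Beyond the lists, the class I antigen genes B2m and H2-K1 rose by 0.77 and 1.00, and Ass1, the argininosuccinate synthase, was at 134, 171, 155 and 145 CPM at T0 and 62.8, 66.4, 73.03 and 48.3 CPM at T7 (log2 -1.27 ± 0.12, adjusted p = 5.4e-08).

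The other lists gave few calls, and over all genes 3.98% were called higher and 4.79% lower. No result about a list is read from these counts. Of the p53 targets, 0 of 29 were higher and 3 lower, led by Rps27l (-0.76). Of the NRF2 targets, 0 of 18 were higher and 3 lower, namely Gclm (-0.72), Gsta4 (-0.54) and Txnrd1 (-0.53). Glycolytic enzymes had 2 of 17 higher and 2 lower, with Aldoc at 0.99 and Ldha at -0.76. The hypoxia list had 2 of 22 higher (Ddit4 and Pdk1, the latter at 0.73) and 0 lower. Fatty acid synthesis had 0 of 15 higher and 1 lower, Elovl6 (-0.43). Proteasome subunits had 2 of 32 higher and 3 lower, and the zinc finger Zfp genes 2 of 292 higher and 13 lower. This last count was 7 without T7 replicate 2, 3 or 4, 8 without T0 replicate 1 and 7 with library totals. Cytoskeleton and SRF targets had 0 of 16 higher and 2 lower, including Ccn2 (-0.75). Of the early differentiation factors 1 of 9 was higher, the keratin Krt8 (0.69). None of 8 interferon genes was called, and 1 two-cell-like gene was tested and not called.

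How much of the chase change was shared with cells that had no inhibitor was asked in a fit of 16 libraries, in which each treatment had its own T7 against T0. In that fit 349 genes were higher (3.02%) and 469 lower (4.06%) in STM2457, and 881 were higher (7.64%) and 1278 lower (11.1%) in DMSO, of 11538 tested. The difference between the 2 changes was called for 152 genes in which STM2457 was higher (1.32%) and 44 in which it was lower (0.381%). Of the 434 genes higher and 522 lower in STM2457 alone, 396 and 497 did not have a called difference. That does not show that their changes were equal. In this design 51% of simulated differences of 1 on the log2 scale and 3% of those of 0.5 were found. These were planted in genes with a mean of at least 10 CPM. Of the 152, 149 had a negative change in DMSO, where the median was -0.81, against 0.13 in STM2457. Of the 44, 42 had a positive change in DMSO, with a median of 0.95 against -0.24. Both sets were selected on the difference, which itself favours such DMSO changes. Over all genes tested the DMSO median was 0.013.

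**Figure D3:**
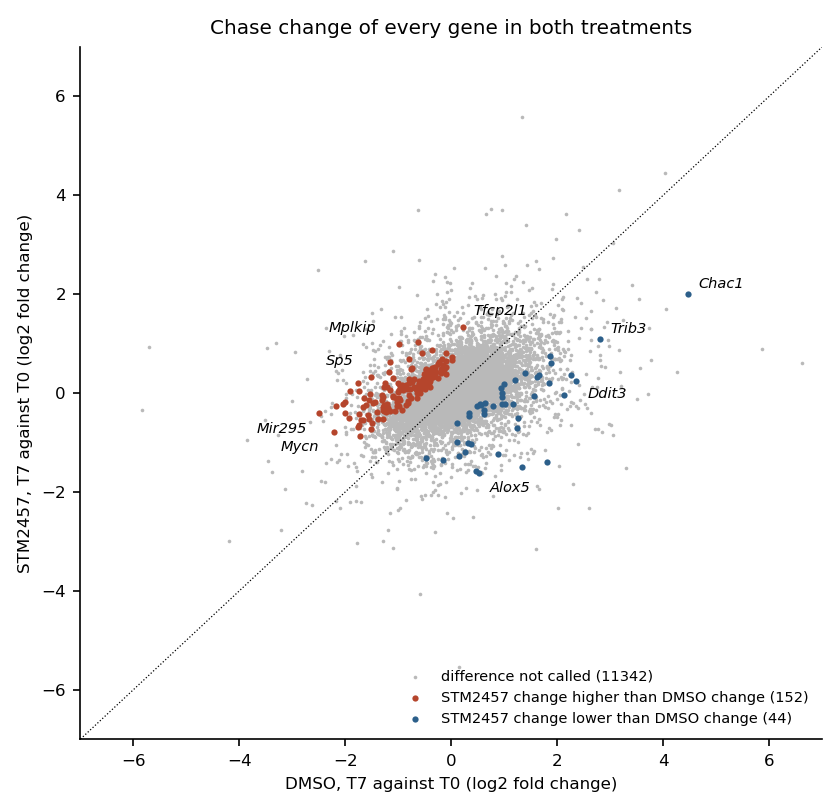
Log2 fold change from T0 to T7 of 11538 genes in DMSO (horizontal) and STM2457 (vertical), from one fit of 16 libraries; the dotted line marks equal change. Red points are the 152 genes whose change was higher in STM2457 and blue points the 44 in which it was lower (adjusted p under 0.01 for the difference). Most red points lie left of 0 on the DMSO axis and most blue points right of it, which selection on the difference favours.

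Chac1 and Trib3 rose further in DMSO than in STM2457, and Ddit3 rose in DMSO. In this fit Chac1 was at 4.04, 4.55, 8.70 and 5.06 CPM at T0 and 22.2, 34.6, 19.4 and 13.2 CPM at T7 in STM2457, and at 5.23, 1.80, 2.25 and 0.659 CPM and 47.9, 63.2, 55.7 and 51.3 CPM in DMSO. The 4 DMSO T7 libraries lay above all STM2457 T7 libraries. The difference of the changes was -2.47 ± 0.46 (adjusted p = 0.00099). Trib3 went from 21.8 ± 3.96 to 46.3 ± 6.66 CPM in STM2457 and from 12.3 ± 3.72 to 86.1 ± 16.5 CPM in DMSO (difference -1.72 ± 0.26, adjusted p = 8.3e-05). Ddit3 was at 23.03 ± 3.94 and 27.3 ± 7.23 CPM in STM2457 and went from 24.1 ± 6.95 to 123 ± 18.1 CPM in DMSO (difference -2.10 ± 0.26, adjusted p = 5.4e-06). Herpud1 and Pycr1, a proline synthesis enzyme, had differences of -1.11 and -1.30. On the Atf4 list 3 of 30 genes had a called difference, namely Chac1, Trib3 and Ddit3, and 13 of the 30 were higher and 2 lower in DMSO (median 0.41). On the unfolded protein response list 2 of 17 differences were higher in STM2457 (Manf at 0.61 and Hsp90b1 at 0.59) and 1 was lower (Herpud1). With a mean of at least 10 CPM over the 16 libraries, the other large differences of this direction belonged to Rnf135 (-2.17), Alox5 (-2.15), Cerkl (-2.04), Rasl11b (-1.94), Gnaz (-1.91) and Parp16 (-1.77). Rarer genes had larger ones, among them 1700023F06Rik (-2.84). For Alox5, a lipoxygenase, the levels were 12.4 ± 3.68 and 4.04 ± 1.42 CPM in STM2457 and 12.2 ± 4.01 and 17.6 ± 1.30 CPM in DMSO.

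In the other direction, most genes had a negative change in DMSO. The largest difference was that of Mir295, at 144, 139, 128 and 85.5 CPM at T0 and 75.5, 109, 97.5 and 96.4 CPM at T7 in STM2457, and 133, 145, 117 and 113 CPM and 17.97, 21.7, 28.6 and 21.4 CPM in DMSO (difference 2.10 ± 0.21, adjusted p = 5.8e-08). These are reads of polyadenylated RNA on a window that carries the name of the miRNA, 97.9% of them mapping to several positions, and not reads of the mature miRNA. Mir17hg, the host gene of the miR-17-92 cluster, was at 30.6 ± 5.37 and 31.4 ± 5.85 CPM in STM2457 and at 26.1 ± 4.61 and 6.81 ± 3.57 CPM in DMSO (difference 1.96 ± 0.34, adjusted p = 0.00045). Both loci encode miRNAs with closely related seeds, shown in capitals (bases 2 to 8 of the mature RefSeq sequence, GRCm38.p6), which share the 6 bases AAGUGC.
mmu-miR-295-3p, chr7:3220815-3220837, plus strand: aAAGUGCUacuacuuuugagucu
mmu-miR-17-5p, chr14:115043684-115043706, plus strand: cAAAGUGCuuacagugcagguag
mmu-miR-20a-5p, chr14:115044183-115044205, plus strand: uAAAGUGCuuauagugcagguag

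Tubulins differed between the treatments, with 5 of 9 higher in STM2457 and 0 lower. Tubb4b was at 642, 634, 648 and 679.5 CPM at T0 and 927, 847, 861 and 858 CPM at T7 in STM2457, and at 767, 655, 772 and 718 CPM and 359, 295, 303 and 339 CPM in DMSO. It moved up in one treatment and down in the other (difference 1.59 ± 0.12, adjusted p = 8.1e-11). Tuba1c differed by 1.39 and Tuba4a by 0.83. Mitochondrial ribosomal proteins had 11 of 76 differences higher in STM2457 and 0 lower, with medians of the change of 0.08 in the STM2457 libraries and -0.25 in DMSO. Ptrh2, a mitochondrial peptidyl-tRNA hydrolase, had levels of 81.9 ± 9.12 and 127 ± 7.61 CPM in STM2457 and 108 ± 10.4 and 48.3 ± 5.11 CPM in DMSO (difference 1.79 ± 0.16, adjusted p = 7.4e-09). Of the transcription factors, Tfcp2l1 differed by 1.11 (adjusted p = 0.0034), Klf2 by 1.03, Mycn by 1.41 and the WNT target Sp5 by 1.83. Klf2, an abundant naive factor, was at 869 ± 54.5 and 735 ± 57.8 CPM in STM2457 and at 604 ± 76.7 and 250.1 ± 24.9 CPM in DMSO. Mplkip, Mllt11, Gm32061, Tmem60 and Gspt2 completed the 8 largest, with differences of 1.96, 1.97, 1.91, 1.84 and 1.83. In mitosis 3 of 36 differences were higher in STM2457 (Aurka at 0.85, Mki67 at 0.75 and Birc5 at 0.64) and 0 lower. Of these 36 genes 27 were lower and 0 higher in DMSO, with a median of -0.78.

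A difference was called for 0 of 79 cytosolic ribosomal proteins and 0 of 17 FGF-ERK genes. Over all genes 1.32% were higher and 0.381% lower in STM2457, and 3% of simulated log2 differences of 0.5 were found. Nothing is therefore read from these 0 calls. For the ribosomal proteins, 56 of 79 were lower in DMSO, with a median of -0.41, and for the FGF-ERK genes 6 of 17 were lower and 1 was higher, with a median of -0.52. The replication-dependent histones had no called difference either, from which nothing is read, and 10 of 31 were lower in DMSO. Of the formative factors 12 of 18 were lower in DMSO (median -1.03), and 2 differences were higher in STM2457.

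The course over T1 to T7 was fitted over all 31 labelled STM2457 libraries. After 1 h, the count of genes called against T0 rose with each time point. Of 12121 genes, 1 was higher (0.00825%) and 2 lower (0.0165%) at 1.5 h, 3 (0.0248%) and 5 (0.0413%) at 2.3 h, 7 (0.0578%) and 19 (0.157%) at 3.5 h with 3 libraries, 58 (0.479%) and 60 (0.495%) at 5.3 h, 89 (0.734%) and 103 (0.85%) at 8 h, and 268 (2.21%) and 375 (3.09%) at 12 h. The libraries at 1 h broke this order, with 306 and 558. Without them, over 27 libraries, 497 genes were higher and 682 lower at 12 h. The counts do not date the change, since they depend on the spread between libraries as well as on its size. The median absolute log2 change from T0 was 0.20 at 1.5 h and 0.28 at 12 h. It also holds sampling noise, so it does not date the change either. Between 8 and 12 h, 0 genes were called higher and 1 lower, in the fit that includes the 1 h libraries. All time points share the T0 libraries, so their values are given side by side and were not related to each other.

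List means are given per time point as a description, with no test of timing. The mean log2 ratio to T0 over the FGF-ERK list was -0.45 at 1.5 h, -0.58 at 5.3 h and -0.57 at 12 h. For the formative list it was -0.11, -0.38 and -0.67 at these times. The Atf4 list was at -0.13 at 1 h, -0.08 at 1.5 h, -0.11 at 2.3 h, -0.15 at 3.5 h, -0.07 at 5.3 h, 0.05 at 8 h and 0.33 at 12 h. Its libraries at 2.3 and 3.5 h all lay below those of T0. The mitotic list was at -0.12 at 8 h and -0.39 at 12 h. Unfolded protein response genes were at -0.01 at 3.5 h, 0.16 at 5.3 h and 0.27 at 12 h. Cytosolic ribosomal proteins were at 0.17 at 1 h, -0.09 at 1.5 h, -0.20 at 8 h and -0.39 at 12 h.

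**Figure D4:**
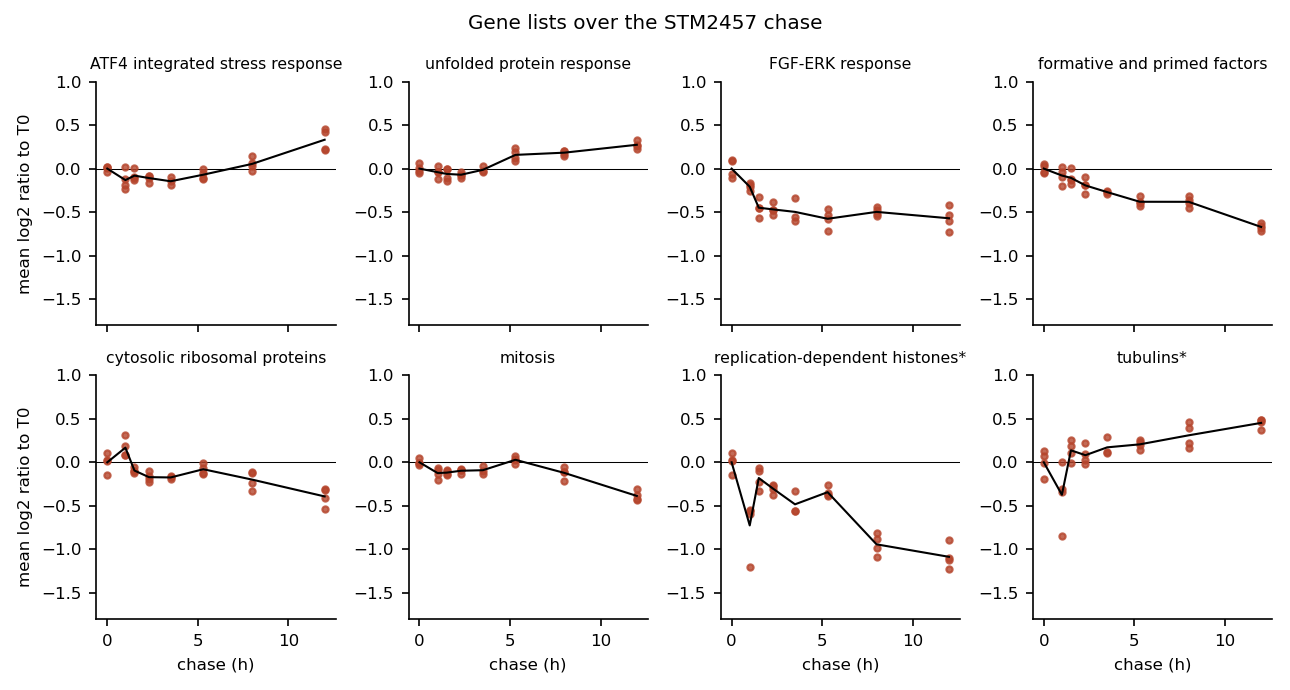
Mean over the tested members of a list of the log2 ratio to the T0 mean, with log2(CPM + 1) as the level, in each labelled STM2457 library (points, n = 4 per time, 3 at 3.5 h) and its mean (line), against hours of chase; stars mark lists added after values had been seen. The Atf4 list is at -0.15 at 3.5 h and at 0.33 at 12 h, the FGF-ERK list is at -0.45 by 1.5 h, and the 1 h libraries stand apart for histones, tubulins and ribosomal proteins.

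Of single genes, Chac1 was at 5.45 CPM at T0, 2.85 at 5.3 h, 7.32 at 8 h and 21.8 at 12 h, and was called at 12 h alone (adjusted p = 0.0018). Hspa5 was at 729 CPM at T0, 839.7 at 3.5 h, 998 at 5.3 h and 966 at 12 h and was called from 5.3 h on (adjusted p = 0.00043 at 5.3 h). Nodal was at 163 CPM at T0, 115 at 1.5 h and 94.9 at 3.5 h, where it was called (adjusted p = 0.00077), and then at 92.7 to 89.8 CPM. It was thus near its final level by 3.5 h. Ogt was at 67.4, 88.7, 111, 174 and 167 CPM at T0, 1.5, 3.5, 8 and 12 h. Tfcp2l1 was at 27.2 CPM at T0, 33.6 at 3.5 h, 54.1 at 8 h and 68.2 at 12 h. Aurka was at 167 CPM at T0, 162 at 5.3 h, 126 at 8 h and 90.4 at 12 h. Tdgf1 was at 271 CPM at T0 and 146 at 5.3 h, and Etv4 was at 42.4, 33.4 and 16.8 CPM at T0, 3.5 and 5.3 h.

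Since m6A on X-chromosomal transcripts is a theme of the study, the chromosomes were set side by side. On the X chromosome 13 of 369 genes were higher (3.52%) and 16 lower (4.34%), against 421 (4%) and 505 (4.8%) of 10515 autosomal genes. The median change was -0.03 on the X chromosome, and the medians of the 19 autosomes ran from -0.03 to 0.05. In DMSO the X median was -0.12, with autosomal medians from -0.12 to 0.09. There 54 of 396 X-linked genes were lower (13.6%) and 14 higher (3.54%), against 11% and 7.79% of autosomal genes. The difference between the treatments had a median of 0.12 on the X chromosome, with autosomal medians from -0.08 to 0.12. It was called higher in STM2457 for 7 of 396 X-linked genes (1.77%) and lower for 0, against 1.3% and 0.396% of autosomal genes. With so few calls near the autosomal shares, nothing is read from their direction. These are counts and medians over genes, and no test was made between chromosomes.

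Features of the genes are given as medians, with no test. The median coding sequence was 1418 bases for the higher, 1014 for the lower and 1395 for all tested genes. The core m6A motif GGAC occurred 5.39 times per 1000 coding bases in the higher, 4.61 in the lower and 4.94 in all tested genes (medians over 428, 506 and 10604 genes with a GENCODE M21 coding sequence). In the 3′ UTR it was 3.37, 2.67 and 2.93 per 1000 bases. For the difference from DMSO the order of the higher and lower genes was reversed. The coding medians were 4.74 in genes where STM2457 was higher, 6.07 where it was lower and 4.95 in all tested genes. These were over 145, 41 and 11204 genes with a coding sequence. The 3′ UTR medians were 2.71, 4.27 and 2.93. The s4U label left at T7, as the conversion rate after subtraction of the unlabelled libraries and relative to T0, had a median of 4.51% in the higher genes, 3.39% in the lower genes and 2.15% in all tested genes. The quartiles overlapped broadly, at 0.62% to 9.52% for the higher and 0.02% to 13.3% for the lower genes. In the DMSO libraries the same 3 sets had medians of 3.41%, 5.02% and 2.70%, so the higher and lower genes changed order. Their median levels were 56.9, 101 and 28 CPM, so the sets also differed in abundance. Lists lay far apart. The median was 37.2% for the 78 cytosolic ribosomal proteins and 0.77% for the 36 mitotic genes.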

How the data were processed

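3′ mRNA sequencing (QuantSeq, primed on poly(A) tails) with s4U labelling (SLAM-seq) was made from mESC. The authors ran FastQC 0.11.8 and SLAM-DUNK 0.4.3, which allowed up to 100 positions per read, and deposited read counts per 3′ UTR window collapsed per gene, with the multimapping count and the T-to-C conversion rate as a fraction beside them (GRCm38.p6, GENCODE M23 filter). No use of molecular identifiers was stated. A read with several positions can be credited to a wrong gene copy, and a 3′ window sees little of a change in isoform.

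Here the deposited counts of STM2457 T7 and T0 were compared by edgeR 4.0.16 (R 4.3.3), with its filter on low counts, TMM factors, the quasi-likelihood test and Benjamini-Hochberg adjustment over all genes tested, at an adjusted p under 0.01. The fit used 8 libraries. A second fit of 16 libraries, with DMSO T0 and T7, tested the difference of the changes, and another of 31 labelled STM2457 libraries gave the course. Hours of chase came from the study. On simulated counts for 10904 genes the first fit recovered 91% of log2 changes of 1 and 43% of those of 0.5. Each size was planted in 100 genes with a mean of at least 10 CPM, so recovery in rarer genes was not tested. Samples were grouped by their labels. DESeq2 1.42.0, other scalings and filters, counts without multimapping reads, a replicate block and leaving out each library were the alternatives. The fit without T1 was chosen after seeing the data. The members and gene lists were chosen with earlier results of these data known, and 3 lists and some single genes after values were seen here. The text names the 12 largest changes each way (mean of at least 10 CPM, no overlap), the 8 largest differences from DMSO each way (mean of at least 10 CPM), up to 4 members of each list with the smallest p, Mettl3, the 5 genes with the most reads and, chosen after their values were seen, further list members and single genes. Some genes that the rule names are not reported here. Coordinates are from GENCODE M21 and sequences from RefSeq, both on GRCm38.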

Additional observations from a re-analysis of the deposited data

Results flagged for a closer look

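Of 342 groups of 4 libraries examined, 21 held 1 library whose gap to the nearest of the others exceeded Dixon's 95% critical value as a share of the group's range, where chance gives about 1 in 20, or 17.1. DMSO T7 replicate 1 held 4539726 reads, the fewest of its group. STM2457 T0 replicate 1 stood apart for Atp5md (359 CPM), Aurka (187 CPM) and Map1lc3b (84.6 CPM). STM2457 T0 replicate 2 stood apart for Ap3b2 (5.43 CPM) and Nodal (210.3 CPM). STM2457 T0 replicate 3 stood apart for Epha2 (43.4 CPM), Gbx2 (53.7 CPM) and Nars (256 CPM). STM2457 T0 replicate 4 stood apart for Pim1 (92.3 CPM) and Zfp651 (8.91 CPM). STM2457 T7 replicate 1 stood apart for Atp5b (1034 CPM), Elovl6 (93.4 CPM), Hspa1b (11.5 CPM), Pdk1 (66.9 CPM), Tubb4b (922 CPM) and Ythdc1 (81.6 CPM). STM2457 T7 replicate 2 stood apart for Plk1 (191 CPM). STM2457 T7 replicate 3 stood apart for Klf5 (126 CPM). STM2457 T7 replicate 4 stood apart for Hist2h2ac (15.8 CPM) and Hmmr (63.6 CPM).

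The change from T0 to T7 differed between STM2457 and DMSO by the test of the difference itself (edgeR's quasi-likelihood test, adjusted p under 0.01) for these named genes. On the log2 scale and as STM2457 minus DMSO, the difference was negative for 1700023F06Rik (-2.84), Alox5 (-2.15), Cerkl (-2.04), Chac1 (-2.47), Ddit3 (-2.10), Gnaz (-1.91), Herpud1 (-1.11), Parp16 (-1.77), Pycr1 (-1.30), Rasl11b (-1.94), Rnf135 (-2.17) and Trib3 (-1.72). It was positive for Aurka (0.85), Birc5 (0.64), Gm32061 (1.91), Gspt2 (1.83), Hsp90b1 (0.59), Hspd1 (0.49), Klf2 (1.03), Lefty2 (0.85), Manf (0.61), Mir17hg (1.96), Mir295 (2.10), Mki67 (0.75), Mllt11 (1.97), Mplkip (1.96), Mrpl46 (0.84), Mycn (1.41), Ncl (0.72), Nsdhl (0.85), Pim1 (1.10), Ptrh2 (1.79), Rrs1 (0.78), Sp5 (1.83), Tfcp2l1 (1.11), Tmem60 (1.84), Tuba1c (1.39), Tuba4a (0.83), Tubb4b (1.59), Tubb6 (0.78) and Uqcrfs1 (1.24).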

How the results depend on the processing

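The number of genes called moved by over 1.5 times under some alternatives. From 434 higher and 522 lower, it moved to 714 and 300 with library totals in place of TMM factors, to 268 higher over all 31 labelled libraries, to 870 and 1005 at an adjusted p under 0.05, and to 279 and 271 when a change of at least 1.5-fold was also asked for. Leaving out 1 library gave 260 to 366 higher and 320 to 476 lower. From 152 higher and 44 lower differences between STM2457 and DMSO, DESeq2 gave 83 lower and no filter on low counts 92 lower, and leaving out 1 library gave 113 to 164 higher and 29 to 61 lower, with 29 without STM2457 T0 replicate 3. The cause was not tested. Of the values of single genes under these alternatives, 3262 changes over the chase kept their direction and side of the threshold, 55 passed it in addition, 327 no longer passed it and 1 reversed. That 1 was Idi1, at 0.074 (adjusted p = 0.91) without multimapping reads. For the difference from DMSO, 941 kept their side and 130 no longer passed. Replicate numbers did not pair the libraries, since same-numbered libraries of T0 and T7 correlated at -0.08 to 0.11 and 1 of 8 correlated best with its own number. With the replicate number as a block, 402 genes were higher and 478 lower, and 137 differences were higher and 37 lower.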
